A study of Mus musculus with 6 samples.

Results

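Adult testis was compared with neonatal testis across the genome, with 1 array for each. The adult testes came from male C57BL/6 mice aged 10 weeks and the neonatal testes from male C57BL/6 mice on postnatal day 1. C57BL/6 is an inbred laboratory strain, and no treatment and no altered allele is named for either group. These are 2 of the 6 arrays of a study of mouse gonads, which also holds fetal testis at 15.5 days postcoitum and ovary at the same 3 ages. Neither the number of animals behind an array nor any pooling of testes is given in the sources used here. All 18161 genes that could be measured by a probe set with a single gene symbol were members, and each was represented by its brightest such probe set. Arrays were scaled to the same 2% trimmed mean, signals under 75.3 were set to that floor, and a gene was described as higher or lower when its adult over neonatal ratio was 4 or more in either direction. With 1 array per group no difference has a replicate check, neither p-values nor standard errors can be given, and precision is limited by the number of arrays.

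The testis holds germ cells in seminiferous tubules, together with Sertoli cells that nurse them, and around the tubules lie peritubular muscle cells, steroid-making Leydig cells, vessels and macrophages. At birth the tubules hold Sertoli cells, which still divide, and a small number of resting prospermatogonia. In the adult, germ cells outnumber the somatic cells. Spermatogonia divide and enter meiosis as spermatocytes, and the haploid spermatids that follow build an acrosome, a tail and a nucleus in which protamines replace histones. Transcription stops before the spermatid is finished, so many messengers are made early and stored. In spermatocytes the X and Y chromosomes are silenced, and several germ cell enzymes come from autosomal copies of X-linked genes. In whole testes, fewer cells of a type and less RNA per cell cannot be told apart.

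Both arrays carried signal of a Y-linked gene and of a gene that Sertoli cells express. Y-linked Eif2s3y, a translation factor, had a signal of 757 in adult testis and 1091 in neonatal testis, and Clu, or clusterin, a product of Sertoli cells, had 8784 in adult testis and 13874 in neonatal testis. Spermatid genes such as the protamine Prm1 were bright in adult testis and at the floor in neonatal testis.

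Of the 18161 genes, 1937 (10.7%) were 4-fold or more higher in adult testis and 1875 (10.3%) were 4-fold or more lower. Both shares are the background against which the counts of every gene list under the trimmed mean are read. The directions differed in size. Among the higher genes 872 were 16-fold or more higher and 181 were 64-fold or more higher, and among the lower genes 152 and 5 passed those limits. Of the higher genes 1183 were at the floor in neonatal testis, so that their ratios are lower bounds, while 463 of the lower genes were at the floor in adult testis. The median log2 ratio of the 14185 genes above the floor on either array was -0.30. The choice of scaling mattered most. The geometric mean of 9 hybridization controls, which are RNAs spiked in at set amounts, was 745 in adult testis and 1629 in neonatal testis in the deposited signals. Scaling to them moved the log2 ratios of genes measured on both arrays by 1.37 and the median of all genes to 0.86. It gave 3806 genes (21.0%) higher and 460 (2.53%) lower, so that 89.2% of calls were higher, against 50.8% under the trimmed mean. List counts under the hybridization controls are read against 21.0% higher and 2.53% lower. Directions are therefore those under the trimmed mean, and the sign under the hybridization controls is stated wherever a list's median changed sign. Such a list can still lie below the median of all genes under both scalings. Ribosomal protein genes did, with medians of -1.03 and 0.34.

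**Figure D1:**
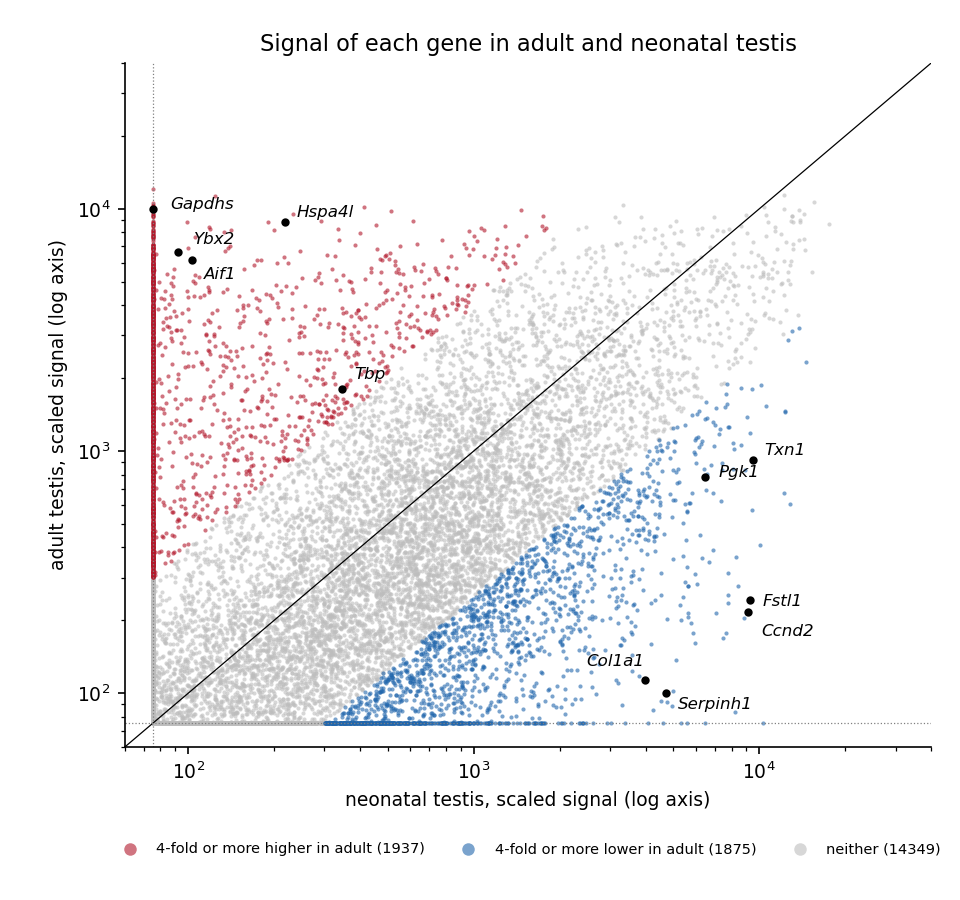
Scaled signal of each gene in adult testis (vertical, log axis) and in neonatal testis (horizontal, log axis), with 1 array per group. Dotted lines mark the floor of 75.3, the solid line equal signals, and colours the 1937 genes higher, the 1875 genes lower and the others; 11 genes named in the text are marked. Red points reach far up the line at the neonatal floor, while blue points lie mostly off the adult floor; scaled to the hybridization controls, 3806 genes would be higher and 460 lower.

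The brightest and most strongly different genes included some outside any list of functions. Gsg1, a germ cell protein that partners the testis poly(A) polymerase, had a signal of 9598 in adult testis and was at the floor in neonatal testis, at least 127-fold higher. Dbil5, an endozepine-like peptide of spermatids, had 9422 in adult testis against the floor in neonatal testis, at least 125-fold higher, although another probe set of it had a log2 ratio of 0.78. Allc, or allantoicase, an enzyme of uric acid breakdown, had 6903 in adult testis and 99.9 in neonatal testis, 69.1-fold higher. Itm2a, a membrane protein, had 83.8 in adult testis and 8231 in neonatal testis, 98.3-fold lower. Nrep, a small protein of growing and healing tissue, had 177 in adult testis and 7644 in neonatal testis, 43.2-fold lower. Kazald1, a secreted relative of the insulin-like growth factor binding proteins, was at the floor in adult testis against 3389 in neonatal testis, at least 45.0-fold lower. Rcn3, a calcium-binding protein of the endoplasmic reticulum, was at the floor in adult testis against 2922 in neonatal testis, at least 38.8-fold lower.

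Promoters of the 2 sets of genes differed in base content and in 1 short motif. The motif GTTGCCA is the core of the X-box, the element that RFX transcription factors bind and that cilium genes often carry. It was searched on both strands in the 250 bases before and 50 bases after the first listed start of 14461 genes with a promoter in RefSeq (GRCm38.p6). It was found in 9.48% of the 1582 promoters of genes higher in adult testis and in 2.53% of the 1462 of genes lower, against 4.22% of all 14461 and 4.38% of all 32851 promoters listed. With promoters split into equal bins of GC content, it was in 9.88% of higher and 3.98% of lower genes at low GC, in 11.99% and 1.63% at middle GC, and in 18 of 360 higher and 16 of 645 lower genes at high GC. The sites of higher genes lay closer to the start, with a median position of -42 against -101 for lower genes. Of 31 axoneme genes with a promoter, 6 held it (19.4%), and so did 1 of 20 acrosome genes, 1 of 11 genes of nucleus condensation and 0 of 11 fibrous sheath and outer dense fibre genes. The 3 promoters shown were chosen after the values were seen, as genes of the sperm tail or head with a site close to the start. The capitals mark the core, written as GTTGCCA or as its reverse complement, and each line reads in the direction of its gene.
Tekt1 (chr11:72361833-72362132, minus strand): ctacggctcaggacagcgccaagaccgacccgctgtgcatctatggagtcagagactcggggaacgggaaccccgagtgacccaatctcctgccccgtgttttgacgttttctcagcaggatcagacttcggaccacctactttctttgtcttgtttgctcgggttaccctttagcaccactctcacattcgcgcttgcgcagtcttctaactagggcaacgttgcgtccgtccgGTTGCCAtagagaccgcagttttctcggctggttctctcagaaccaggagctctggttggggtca
Lrrc23 (chr6:124779678-124779977, minus strand): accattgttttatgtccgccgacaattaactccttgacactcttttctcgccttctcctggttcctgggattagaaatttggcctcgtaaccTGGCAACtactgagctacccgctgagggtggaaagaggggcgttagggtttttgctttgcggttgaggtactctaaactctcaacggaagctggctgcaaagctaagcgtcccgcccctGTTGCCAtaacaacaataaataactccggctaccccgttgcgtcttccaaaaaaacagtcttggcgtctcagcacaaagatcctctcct
Actl7b (chr4:56741376-56741675, minus strand): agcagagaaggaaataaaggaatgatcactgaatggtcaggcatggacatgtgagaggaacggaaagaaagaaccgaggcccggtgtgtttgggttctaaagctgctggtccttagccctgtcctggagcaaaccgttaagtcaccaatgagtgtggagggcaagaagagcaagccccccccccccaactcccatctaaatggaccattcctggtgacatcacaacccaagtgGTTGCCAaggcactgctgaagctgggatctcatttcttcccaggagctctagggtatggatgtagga
Tekt1, a protein of the ribbons inside sperm tail microtubules, had a signal of 6268 in adult testis and was at the floor in neonatal testis, so it was at least 83.3-fold higher. Lrrc23, a radial spoke protein, had 2889 in adult testis against the floor in neonatal testis, at least 38.4-fold higher, and its promoter holds 2 sites. Actl7b, an actin-related protein of spermatids, had 5588 in adult testis and 76.2 in neonatal testis, 73.4-fold higher. A match describes letters in this window and is not evidence of binding. Rfx2, an RFX factor needed for spermatids, had 1819 in adult testis and was at the floor in neonatal testis (at least 24.2-fold higher), with another of its probe sets at the floor on both arrays. Rfx4 had 1277 in adult testis against the floor in neonatal testis, at least 17.0-fold higher.

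CpG content was low in the most strongly higher genes and in genes seen on neither array. The median ratio of observed to expected CpG was 0.26 in promoters of the 147 genes 64-fold or more higher that had one, 0.54 in all higher genes, 0.71 in lower genes, 0.31 in genes at the floor on both arrays and 0.67 in all genes. A ratio under 0.35 was found in 57.8% of the first set, in 34.8% of higher genes, in 14.0% of lower genes, in 55.2% of genes at the floor on both arrays and in 25.8% of all genes. Among the 106 promoters of genes 16-fold or more lower the median was 0.58, and 27.4% were under 0.35. For the fibrous sheath and outer dense fibre genes 81.8% were under it, while for axoneme genes 16.1% were. The promoters of Prm1, which packs sperm DNA, and of Serpinh1, the chaperone of procollagen, show the contrast, with each CG in capitals.
Prm1 (chr16:10796774-10797073, minus strand): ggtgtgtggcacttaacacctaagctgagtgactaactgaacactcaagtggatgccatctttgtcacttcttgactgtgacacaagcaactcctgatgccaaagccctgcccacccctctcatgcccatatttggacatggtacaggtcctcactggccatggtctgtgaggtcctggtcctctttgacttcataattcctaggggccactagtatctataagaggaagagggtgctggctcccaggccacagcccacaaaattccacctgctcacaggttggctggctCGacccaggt
Serpinh1 (chr7:99353190-99353489, minus strand): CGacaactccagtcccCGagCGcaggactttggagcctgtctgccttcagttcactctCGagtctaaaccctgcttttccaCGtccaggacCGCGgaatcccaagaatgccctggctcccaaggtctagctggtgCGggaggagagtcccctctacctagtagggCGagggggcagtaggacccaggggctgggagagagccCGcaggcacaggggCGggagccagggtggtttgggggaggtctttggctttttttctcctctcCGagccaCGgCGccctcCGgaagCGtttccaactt
Prm1 had 1 CG in 300 bases and a signal of 9537 in adult testis against the floor in neonatal testis, at least 127-fold higher. Serpinh1 had 16 CG and a signal of 100.2 in adult testis against 4716 in neonatal testis, 47.1-fold lower. The cAMP response element TGACGTCA, the site of CREM, was in 3.03% of higher, 2.12% of lower and 2.68% of all promoters. The TATAAA box was in 8.41% of higher, 8.28% of lower and 9.86% of all promoters. Neither motif set these classes apart as the X-box core did.

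**Figure D2:**
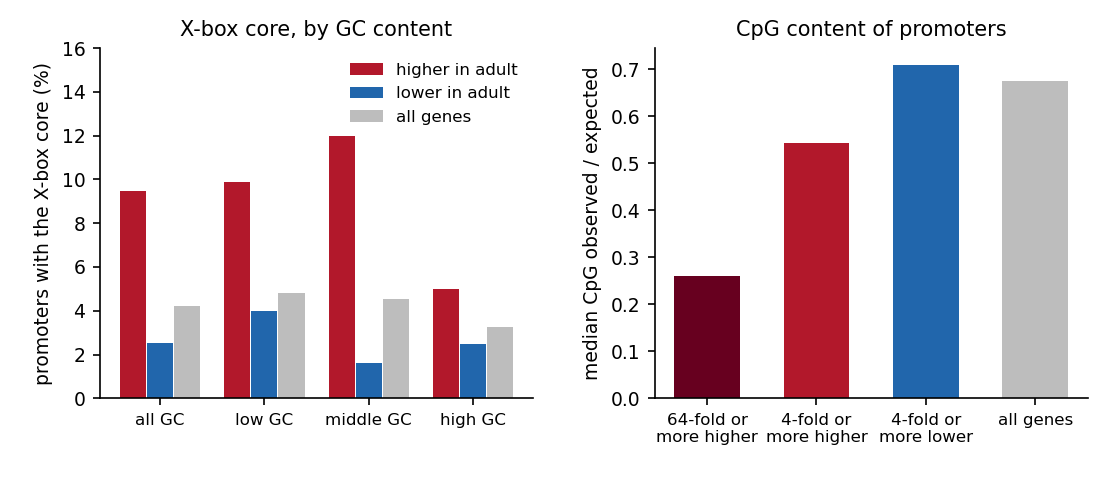
Left, share of promoters (%) with the X-box core in genes higher in adult testis, lower in adult testis and all genes, over all GC contents and at low, middle and high GC content. Right, median observed over expected CpG in the promoters of genes 64-fold or more higher, 4-fold or more higher, 4-fold or more lower and all genes. The core was in 9.48% of higher and 2.53% of lower promoters, and CpG content was lowest, at 0.26, in the most strongly higher genes.

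Proteins that compact the sperm nucleus had the highest median of the 62 lists described. Of 11 measured genes 8 were higher and 1 was lower, with a median log2 ratio of 6.56. Tnp2, a transition protein that precedes the protamines, had a signal of 9311 in adult testis and was at the floor in neonatal testis, at least 124-fold higher. Hmgb4, a high mobility group protein of germ cells, had 7929 against the floor, at least 105-fold higher. Brdt, the bromodomain protein that reads acetylated histones in germ cells, had 1999 in adult testis against the floor in neonatal testis, at least 26.5-fold higher. All 8 higher genes were at the floor at birth. H1f6, the testis linker histone, was at the floor on both arrays. Cdyl was the lower member, with 298 in adult testis and 1407 in neonatal testis, but its probe sets ran from log2 ratios of -2.57 to 5.63.

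Genes of the acrosome, the vesicle whose enzymes and surface proteins act at the egg, were all higher: 29 of 29, with a median log2 ratio of 5.28. Acr, the protease acrosin, had a signal of 3449 in adult testis against the floor in neonatal testis, at least 45.8-fold higher. Izumo1, the sperm protein that binds its partner on the egg, had 2371 against the floor, at least 31.5-fold higher. Spaca6, also needed for fusion with the egg, had 1260.2 in adult testis and 168 in neonatal testis, and its 7.52-fold ratio was the smallest of the list. The chaperones that fold egg-binding proteins were on the same list. Clgn, or calmegin, had 5343 in adult testis and 106 in neonatal testis, 50.4-fold higher. Genes of the perinuclear theca, the shell between nucleus and acrosome, and its actin-related proteins were higher in 10 of 10 (median 5.69). Capza3, an actin capping protein of spermatids, had 5491 in adult testis against the floor in neonatal testis, at least 72.9-fold higher. Cylc1, a calyx protein encoded on the X chromosome, had 361 against the floor, the smallest signal of the list.

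The tail was represented by structural and by transport genes, and these differed. Of the fibrous sheath and outer dense fibre genes, which stiffen the tail, 14 of 15 were higher (median 6.32). Akap3, a sheath anchor for protein kinase A, had a signal of 8669.9 in adult testis against the floor in neonatal testis, at least 115-fold higher. Odf1, a protein of the outer dense fibres, had 8479 against the floor, at least 113-fold higher. Tsga10 was the exception, with 81.3 in adult testis and 205 in neonatal testis, and another probe set of it at a log2 ratio of 2.29.

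In the axoneme, the microtubule core of the tail, 29 of 37 genes were higher and none was lower (median 4.65). Dnah8, a dynein heavy chain, had 5682 in adult testis against the floor in neonatal testis, at least 75.5-fold higher, although another probe set of it had a log2 ratio of 0.24. Rsph1, a radial spoke head protein, had 8789 in adult testis and 189.9 in neonatal testis, 46.3-fold higher. Gas8 and Dnal1, which somatic cells with cilia also use, were not past the limit, at log2 ratios of 1.34 and -0.11. Of 23 genes for transport along the growing tail and the manchette 7 were higher (median 1.57), or 17 under the hybridization controls, and most of the others were already well above the floor at birth. Ift172, an intraflagellar transport protein, had 4913 in adult testis and 550.3 in neonatal testis, 8.93-fold higher. Ift20 had 1719.96 in adult testis and 1476 in neonatal testis, a log2 ratio of 0.22. Kif17, a kinesin, had 3443 in adult testis and 101 in neonatal testis, 34.2-fold higher.

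Energy genes differed by isozyme. Of 15 glycolytic genes and transporters with germ cell forms 12 were higher and none lower (median 4.76). Of 14 somatic forms none was higher and 4 were lower, and their median of -0.72 was 0.65 when scaled to the hybridization controls, with 3 higher and none lower. Gapdhs, the glyceraldehyde-3-phosphate dehydrogenase bound to the fibrous sheath, had a signal of 9991 in adult testis against the floor in neonatal testis, at least 133-fold higher. Pgk2, the autosomal phosphoglycerate kinase, had 7477 in adult testis against the floor in neonatal testis, at least 99.3-fold higher. Its X-linked parent Pgk1 had 784 in adult testis and 6449 in neonatal testis, 8.23-fold lower. The same held for the pyruvate dehydrogenase subunit. Pdha2 had 4721 in adult testis against the floor in neonatal testis, at least 62.7-fold higher, and X-linked Pdha1 had 179 in adult testis against 1454, 8.14-fold lower. Pgam2, a phosphoglycerate mutase, had 8053 in adult testis against the floor, at least 107-fold higher, and Pgam1 had 832 in adult testis against 5000.1 in neonatal testis, 6.01-fold lower. Not every somatic form was lower: Ldha, a lactate dehydrogenase, had 8225 in adult testis and 3923 in neonatal testis, a log2 ratio of 1.07. Fbp1, which makes glucose from smaller precursors, had 8427 in adult testis and 119 in neonatal testis, 71.1-fold higher.

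Mitochondrial genes followed the same pattern. Of 11 with germ cell forms 7 were higher (median 3.68), whereas of 22 somatic genes of oxidative phosphorylation none was higher and 5 were lower, with a median of -0.60 that was 0.77 under the hybridization controls, with 2 higher and 1 lower. Cyct, the testis cytochrome c, had a signal of 2884 in adult testis and 225 in neonatal testis, 12.8-fold higher. Somatic Cycs had 3440.03 in adult testis and 9667 in neonatal testis, a log2 ratio of -1.49 that did not reach the limit. Cox6b2, a testis subunit of cytochrome c oxidase, had 7696 in adult testis and 1522 in neonatal testis, 5.06-fold higher. Cox6b1, its somatic form, had 1714 in adult testis and 7648 in neonatal testis, 4.46-fold lower. Vdac1, a channel of the outer membrane, was 10.8-fold lower, with 504 in adult testis against 5427 in neonatal testis.

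Lists of autosomal copies and X-linked parents, which include the Pgk2 and Pdha2 pairs given above, differed in the same way. Of 10 measured retrocopies 8 were higher and none lower (median 3.98), and of 9 X-linked parents none was higher and 5 were lower (median -2.34). Only 1 parent was lower under the hybridization controls (median -0.97). Cetn1, the centrin of sperm centrioles, had a signal of 7688 in adult testis against the floor in neonatal testis, at least 102-fold higher, and Cetn2 had 318 in adult testis against 1747, 5.49-fold lower. Rpl39l, a ribosomal protein copy, had 8312 in adult testis and 1792 in neonatal testis, 4.64-fold higher. Not every X-linked parent was below 0: 1 of the 9 was above it, at a log2 ratio of 0.51. Retrocopy and parent can share probe sequence, and for Cstf2 the probe sets ran from log2 ratios of -2.34 to 2.20. X-linked genes with a Y-linked homologue were lower in 3 of 6 cases (median -1.84) and in none under the hybridization controls (median -0.19). Ddx3x, an RNA helicase, had 735 in adult testis and 5163 in neonatal testis, 7.02-fold lower. Of 7 measured Y-linked genes none passed the limit, with a median of -0.59 that was 0.78 under the hybridization controls.

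Regulatory machinery of late germ cells was largely higher. Ion channels and cAMP signalling genes of sperm were higher in 12 of 17 and lower in 1 (median 4.82). Catsper1, a pore subunit of the sperm calcium channel, had a signal of 2157 in adult testis against the floor in neonatal testis, at least 28.7-fold higher. Plcz1, the phospholipase that sperm carry into the egg to start calcium oscillations, had 4134 against the floor, at least 54.9-fold higher. Prkar2a, a regulatory subunit of protein kinase A, was the lower member, with 170.2 in adult testis and 874 in neonatal testis. Among kinases and phosphatases 18 of 23 were higher (median 4.11). Tssk6, a testis-specific serine kinase, had 4954 in adult testis against the floor in neonatal testis, at least 65.8-fold higher. Ppp1cc, a phosphatase subunit needed for spermatids, did not pass the limit, with 8289 in adult testis and 7860.4 in neonatal testis.

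Transcription regulators of spermatocytes and spermatids were higher in 13 of 22 (median 4.08). Spz1, a zipper factor of the testis, had a signal of 9852 in adult testis against the floor in neonatal testis, at least 131-fold higher. Tbpl1, a relative of the TATA-binding protein needed for spermatids, had 6419 in adult testis and 305 in neonatal testis, 21.0-fold higher. Crem, an activator of spermatid genes, had 4058 against the floor, at least 53.9-fold higher, with another probe set at a log2 ratio of -0.88. Crem makes several transcripts, and which of them a probe set reads was not examined. Brwd1 was lower, with 99.3 in adult testis and 686 in neonatal testis, and its probe sets spanned log2 ratios from -2.79 to 1.72.

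Genes that store and process RNA and the piRNA pathway, which silences transposons, were higher in 16 of 33 (median 1.95). Ybx2, which binds stored messengers in germ cells, had a signal of 6618 in adult testis and 92.5 in neonatal testis, 71.6-fold higher. Piwil1, the PIWI protein of spermatocytes and spermatids, had 2663 in adult testis against the floor in neonatal testis, at least 35.4-fold higher. Piwil2, a PIWI protein that prospermatogonia already use, had 1933 in adult testis and 545 in neonatal testis, 3.55-fold higher and under the limit. The germ cell helicase Ddx4 likewise lay under it, with 4181 in adult testis and 1206 in neonatal testis. Dazl, an RNA-binding protein of germ cells at both ages, had 1772 in adult testis and 1615 in neonatal testis, a log2 ratio of 0.13.

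Protein turnover and folding had germ cell forms too. Ubiquitin and proteasome genes of germ cells were higher in 17 of 24 (median 4.36), while of 38 general proteasome subunits none was higher and 1 was lower, with a median of -0.70 that was 0.58 under the hybridization controls. Psma8, a proteasome subunit of spermatocytes, had a signal of 2524 in adult testis and 187 in neonatal testis, 13.5-fold higher. Psma7, its relative in other cells, had 620.3 in adult testis and 2831 in neonatal testis, 4.56-fold lower. Klhl10, a substrate adaptor of a ubiquitin ligase, had 7341 in adult testis against the floor in neonatal testis, at least 97.5-fold higher. Chaperones were higher in 12 of 21 and lower in 1 (median 5.34), and heat shock genes lay on both sides of the limit. Hspa1l had 4662 in adult testis against the floor in neonatal testis, at least 61.9-fold higher, and Hspa4l had 8809 in adult testis and 218 in neonatal testis, 40.4-fold higher. Hspa8, the chaperone present in most cells, had 2865 in adult testis and 12618 in neonatal testis, 4.40-fold lower. Among redox genes 4 of 15 were higher and 1 was lower (median 0.42), and 7 were higher under the hybridization controls. Txndc2, the thioredoxin of spermatids, had 5679 in adult testis against the floor, at least 75.4-fold higher, and Txn1, the common thioredoxin, had 917 in adult testis and 9494 in neonatal testis, 10.4-fold lower.

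**Figure D3:**
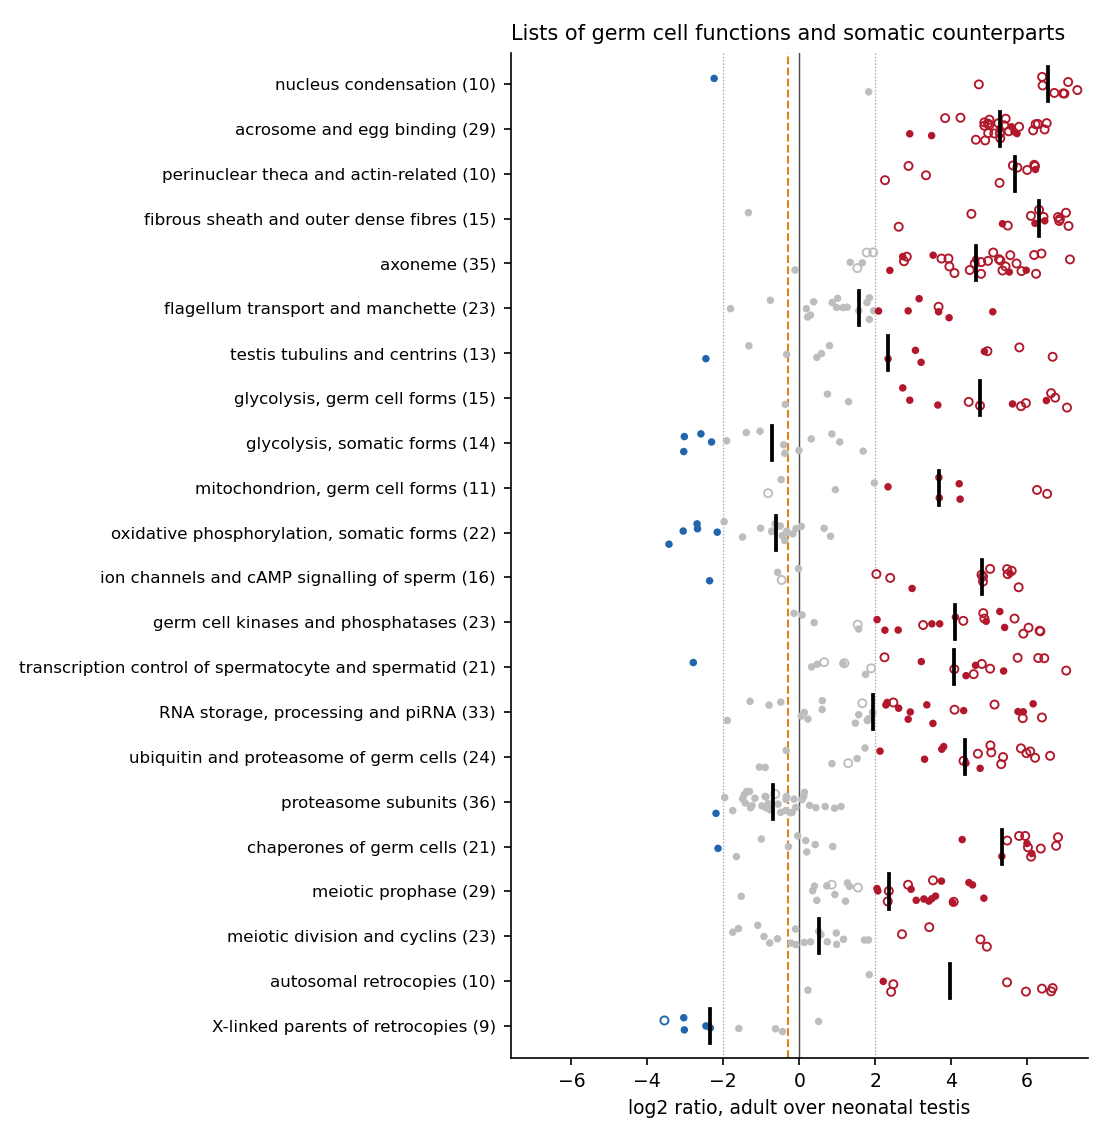
Log2 ratios, adult over neonatal testis, of the members of lists of germ cell functions and their somatic counterparts; numbers in brackets count members above the floor on either array, which are the points drawn. Open circles are bounds with 1 array at the floor, black bars are list medians, dotted lines mark 4-fold, and the dashed line is the median of all genes, -0.30. The medians of acrosome, theca and sheath genes lie far to the right, and those of somatic isozymes and X-linked parents to the left of 0. Under the hybridization controls the medians of somatic glycolysis, oxidative phosphorylation and the proteasome lie at 0.65, 0.77 and 0.58.

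Meiotic genes split between prophase and division. Of 30 prophase genes 18 were higher and none lower (median 2.36), and of 25 division genes 4 were higher and none lower (median 0.51). Of the division genes 10 were higher under the hybridization controls. Sycp2, part of the chromosome axis, had a signal of 3366 in adult testis and 152 in neonatal testis, 22.1-fold higher. Syce1, a protein of the synaptonemal complex, had 6303 in adult testis and 217 in neonatal testis, 29.1-fold higher. Ccna1, the cyclin that spermatocytes need to divide, had 2058 against the floor, at least 27.3-fold higher. General division genes on the same list were close to equal. Cdc20, an activator of the anaphase-promoting complex, had 4931 in adult testis and 3319.99 in neonatal testis, and Pttg1, the securin, had 5598 in adult testis and 5101 in neonatal testis.

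Markers of the germ cells present at birth were mixed. Of 18 spermatogonial genes none was higher and 3 were lower, with a median of -0.90 that was 0.46 under the hybridization controls, with 1 lower and 2 higher. Their summed signal was 5307 in adult testis and 9646 in neonatal testis. Of 16 gonocyte and pluripotency genes none was higher and 2 were lower, with a median of -0.57 that was 0.61 under those controls. Sall4, a factor of undifferentiated germ cells, had a signal of 77.2 in adult testis and 855 in neonatal testis, 11.1-fold lower. Id4, which marks spermatogonial stem cells, had 1692 in adult testis and 565 in neonatal testis, a log2 ratio of 1.58. Nanog and Sox2 were at the floor on both arrays, and Pou5f1 had 76.9 in adult testis and 130.3 in neonatal testis.

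Somatic cell types differed from one another. Genes of immature Sertoli cells were lower in 12 of 21 and higher in none (median -2.41), whereas genes of mature Sertoli cells were higher in 4 of 18 and lower in 3 (median 0.46). With the hybridization controls 5 of the immature genes were lower, and 6 of the mature genes were higher and none lower. Tesc, a calcium-binding protein of fetal Sertoli cells, had a signal of 138 in adult testis and 5126 in neonatal testis, 37.2-fold lower. Dhh, the hedgehog ligand that Sertoli cells send to their neighbours, had 299 in adult testis and 3240.3 in neonatal testis, 10.8-fold lower. Several Sertoli genes were nearly as bright in the adult: Cst9, a cystatin, had 5319 in adult testis and 7425 in neonatal testis, and Defb19, a beta-defensin, had 5065 in adult testis and 7105 in neonatal testis. Eppin, a protease inhibitor of Sertoli cells and epididymis, had 1357 in adult testis and 149.9 in neonatal testis, 9.05-fold higher. Tsx, named for its expression in testis, had 1127 in adult testis against the floor in neonatal testis, a log2 ratio of at least 3.90. Fshr, the receptor for follicle-stimulating hormone, was 4.41-fold lower, with 111 in adult testis and 489 in neonatal testis.

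Steroid genes did not move as 1 block. Of 8 genes used by Leydig cells at both ages 4 were lower and none was higher (median -1.58). None of the 8 was lower under the hybridization controls (median -0.21). Cyp17a1, the enzyme that leads to androgens, had a signal of 2599.6 in adult testis and 2505 in neonatal testis. Hsd3b1, which makes progesterone and later steroids, had 1021 in adult testis and 8134 in neonatal testis, 7.97-fold lower. Near-identical relatives of Hsd3b1 can share its probes, which was not examined. Genes of adult Leydig cells were higher in 2 of 8, Ces1d and Sult1e1, and lower in 2, Hsd17b3 and Akr1c14 (median 0.49). Scaled to the hybridization controls, 4 were higher and none lower. Sult1e1, the oestrogen sulfotransferase, had 497 in adult testis against the floor in neonatal testis, at least 6.61-fold higher. Hsd17b3, which completes testosterone in adult Leydig cells and in fetal life acts in Sertoli cells, had 448 in adult testis and 3776 in neonatal testis, 8.43-fold lower. Of 7 fetal Leydig genes 1 was higher, Agtr1a, and 2 were lower, with a median of -0.85 that was 0.06 under the hybridization controls.

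Peritubular and smooth muscle genes were lower in 10 of 13 (median -2.36). Tagln, an actin-binding protein of smooth muscle, had a signal of 107 in adult testis and 1950.05 in neonatal testis, 18.2-fold lower. Actg2, the enteric smooth muscle actin, went the other way, with 3880.5 in adult testis and 454 in neonatal testis, 8.55-fold higher. Endothelial genes were lower in 5 of 15 and higher in none (median -1.78). Under the hybridization controls 3 of the peritubular genes and none of the endothelial genes were lower, and 1 endothelial gene was higher. Cdh5, the cadherin of vessel walls, had 98.5 in adult testis and 798 in neonatal testis, 8.10-fold lower. Macrophage genes were lower in 2 of 15 and higher in 1, with a median of -0.999 that was 0.37 under the hybridization controls. Aif1, the higher one, had 6132 in adult testis and 104 in neonatal testis, 59.2-fold higher. Other genes of that cell type were not high there: Adgre1 had 204 in adult testis and 218 in neonatal testis, and Csf1r had 589.9 in adult testis and 1065 in neonatal testis.

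Markers of tissues that border the testis were examined beside these results. Of 14 epididymal and duct genes 7 were above the floor on either array and none passed the limit (median 0.49, summed signal 1582 in adult testis and 1092 in neonatal testis). Lcn5, Lcn8, Lcn9, Adam7, Cst11 and Gpx5, secreted products of the epididymis, were at the floor on both arrays. Of 7 adipose genes 1 was higher, Adipoq, which had a signal of 653 in adult testis against the floor in neonatal testis. Fabp4, also of fat cells, had 533 in adult testis and 141 in neonatal testis, and Lep, Cidec and Ucp1 were at the floor on both. The summed adipose signal was 1541 in adult testis and 324 in neonatal testis, and its part in the other results was not tested. Of 5 adrenal genes none was higher and 1, Hsd3b1, was lower, and Cyp11b2 was at the floor on both arrays. Nerve genes were lower in 1 of 6 (S100b) and higher in none. Of 10 red cell genes 1 was higher, Car2, and 6 were at the floor on both arrays, with a median of -0.15 that was above 0 for the signals as deposited and under the hybridization controls.

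Genes of the extracellular matrix were broadly lower. Fibrillar and associated collagens were lower in 9 of 12 (median -3.84), basement membrane genes in 13 of 18 (-2.74), proteoglycan and elastic fibre genes in 19 of 24 (-3.10), collagen processing in 12 of 16 (-2.34) and matrix breakdown in 12 of 17 (-2.95). No member of these 5 lists was 4-fold or more higher, and no median changed sign under any scaling. Under the hybridization controls 8, 6, 14, 4 and 7 members were lower. Col1a1, a chain of type I collagen, had a signal of 113 in adult testis and 3988 in neonatal testis, 35.2-fold lower. Col4a1, of the basement membrane, had 313 in adult testis and 7792 in neonatal testis, 24.9-fold lower. Bgn, or biglycan, encoded on the X chromosome, had 277 in adult testis and 8437 in neonatal testis, 30.4-fold lower.

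Enzymes that build and remove matrix were lower beside the collagens themselves. Lox, which cross-links collagen and elastin, was at the floor in adult testis against 1706 in neonatal testis, at least 22.7-fold lower, although another probe set of it was at the floor on both arrays. Htra1, a secreted protease, had 90.0 in adult testis and 2202 in neonatal testis, 24.5-fold lower. Not all matrix genes were low in the adult. Sparc, a matrix glycoprotein, had 4408 in adult testis and 12220.1 in neonatal testis, a log2 ratio of -1.47 under the limit. Timp2, a metalloproteinase inhibitor, had 2021 in adult testis and 3165 in neonatal testis, and Col16a1 had 1172 in adult testis and 1387 in neonatal testis.

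Growth control genes were lower among ligands, receptors and targets alike. Of 19 imprinted growth genes, which are expressed from the copy of 1 parent, none was higher and 9 were lower (median -3.54). Plagl1, a zinc finger factor, had a signal of 205 in adult testis and 8829 in neonatal testis, 43.1-fold lower. Ndn, or necdin, had 169 in adult testis and 7443 in neonatal testis, 44.0-fold lower. Both have another probe set near or above equal signals, at log2 ratios of 0.44 and 0.32. Cdkn1c, an imprinted inhibitor of the cell cycle, had 911 in adult testis and 948 in neonatal testis.

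In the insulin-like growth factor system 9 of 18 genes were lower and none was higher (median -2.27), and under the hybridization controls 5 were lower and 2 higher. Igf1, the ligand, had 207 in adult testis and 5618 in neonatal testis, 27.1-fold lower. Igf1r, the receptor, had 151 in adult testis and 729.95 in neonatal testis, 4.84-fold lower. Igfbp3, a binding protein in serum and tissue, had 87.8 in adult testis and 1934 in neonatal testis, 22.0-fold lower. The family also held a member on the other side. Igf2bp3, which binds growth factor messengers, had 3463 in adult testis and 1027 in neonatal testis, a log2 ratio of 1.75 just under the limit.

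Of 13 Hedgehog genes 9 were lower and none was higher (median -2.91), and under the hybridization controls 7 were lower and 1 was higher. Ptch1, receptor and target of the pathway, had a signal of 304 in adult testis and 3543 in neonatal testis, 11.6-fold lower. Gli1, a target that reports its activity, had 79.3 in adult testis and 595 in neonatal testis, 7.50-fold lower. TGF-beta, activin and BMP genes were lower in 15 of 24 and higher in none (median -2.72), and under the hybridization controls 7 were lower and 1 was higher. The targets Id1, Id2 and Id3 were all at the floor in adult testis, against 965, 1031 and 1222 in neonatal testis. Fstl1, a secreted binding protein, had 242 in adult testis and 9305 in neonatal testis, 38.4-fold lower.

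Genes of PDGF, FGF and VEGF signalling were lower in 12 of 22 and higher in none (median -2.19), those of Notch in 4 of 16 and higher in none (-1.46), and those of Wnt in 9 of 22 and higher in 2 (-1.74). Members lower under the hybridization controls numbered 2, 2 and 3 on these lists. Pdgfra, a receptor of mesenchymal cells, had 235 in adult testis and 4186 in neonatal testis, 17.8-fold lower. Kitl, the ligand that Sertoli cells offer to germ cells, had 535 in adult testis and 3169 in neonatal testis, 5.92-fold lower, while its receptor Kit had 358 in adult testis and 345 in neonatal testis. Sfrp1, a Wnt antagonist, had 118 in adult testis and 3792 in neonatal testis, 32.2-fold lower. Lef1, a nuclear partner of Wnt signalling, was 4.17-fold higher, with 347 in adult testis and 83.1 in neonatal testis.

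The cytoskeleton and the transcription factors of the somatic gonad showed the same direction. Of 29 genes for actin, intermediate filaments and adhesion 19 were lower and none was higher (median -2.64), with 8 lower under the hybridization controls. Vim, the intermediate filament of mesenchymal and Sertoli cells, had a signal of 1464 in adult testis and 12258 in neonatal testis, 8.37-fold lower. Tmsb10, which binds actin monomers, was nearly equal, with 8835 in adult testis and 10700.5 in neonatal testis. Of 25 gonad transcription factors 14 were lower and none was higher (median -2.22), and under those controls 10 were lower and 2 higher. Gata4, a regulator of Sertoli and Leydig genes, had 240.5 in adult testis and 2595 in neonatal testis, 10.8-fold lower. Nr2f2, which marks interstitial progenitors, was at the floor in adult testis against 1133 in neonatal testis, a log2 ratio of -3.91 or below.

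Of 24 Hox genes, which pattern the body axis, 16 were above the floor on either array, 4 were lower and 1 was higher, with a median of -0.75 that was 0.48 under the hybridization controls, with 2 lower and 3 higher. Hoxd9 had 231 in adult testis and 3612 in neonatal testis, 15.6-fold lower. Hoxa4, which germ cells of the mouse transcribe, had 1388 in adult testis against the floor in neonatal testis, at least 18.4-fold higher. Hoxd8 had 1360.5 in adult testis and 1136 in neonatal testis.

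**Figure D4:**
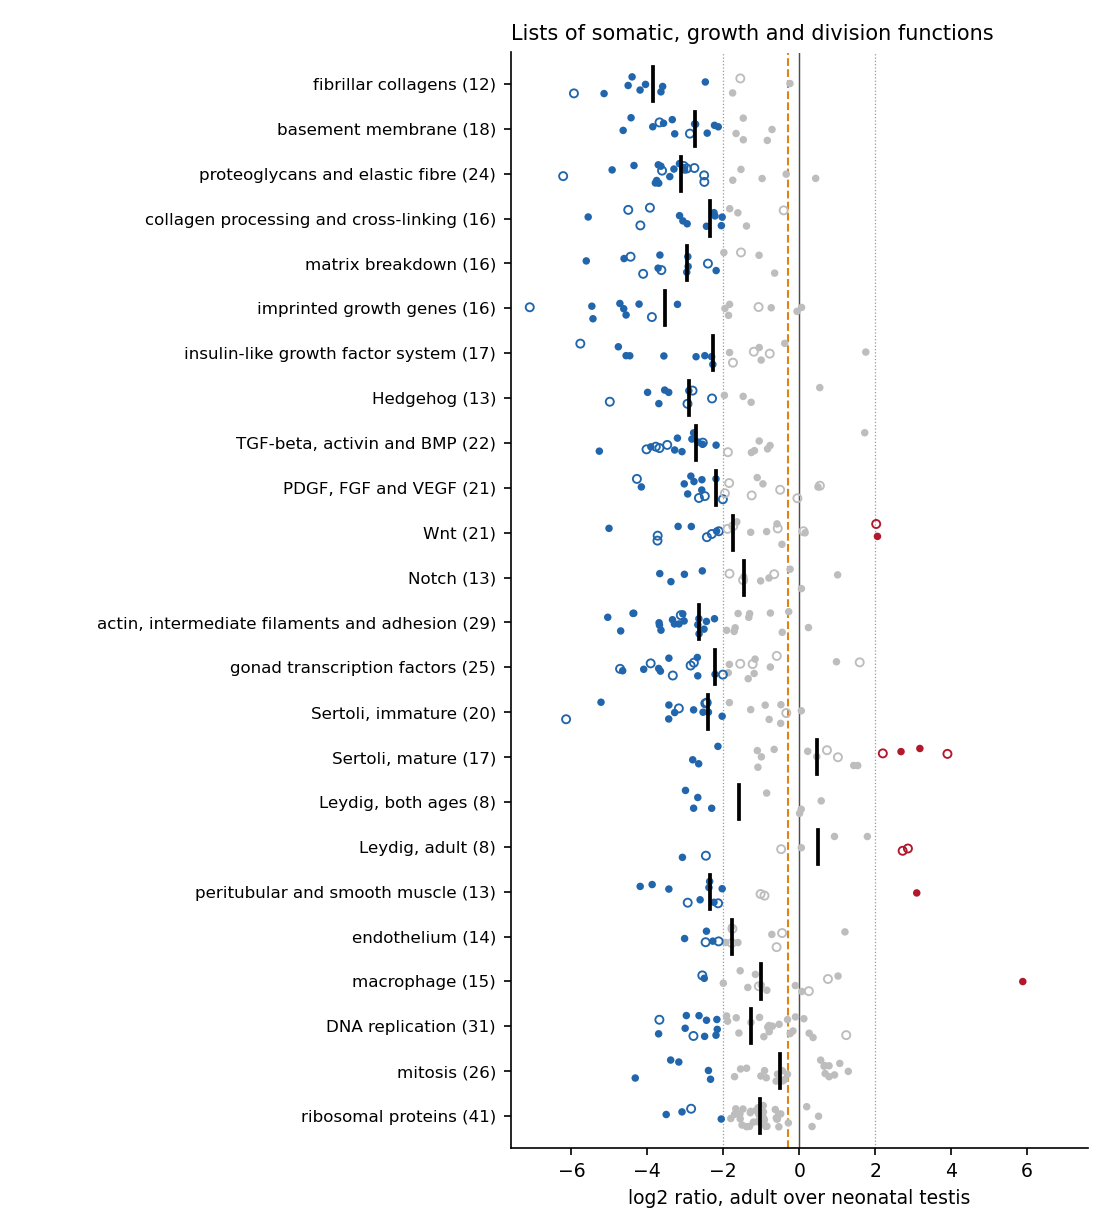
Log2 ratios, adult over neonatal testis, of the members of lists of somatic, growth and division functions, drawn as in the plot of germ cell functions. Matrix, growth factor and cytoskeletal lists lie to the left of the median of all genes (dashed, -0.30), and the points beyond 4-fold on the right include Aif1, Actg2 and 4 genes of mature Sertoli cells. Under the hybridization controls the medians of macrophage, DNA replication, mitosis and ribosomal genes lie at 0.37, 0.10, 0.87 and 0.34.

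The cell division lists had medians below 0, that of DNA replication further than that of mitosis. The median of all genes was -0.30, and 0.86 under the hybridization controls. DNA replication genes were lower in 11 of 32 and higher in none, with a median of -1.27 that was 0.10 under the hybridization controls, with 3 lower and 1 higher. Mitosis genes were lower in 5 of 26 and higher in none, with a median of -0.51 that was 0.87 under those controls, with 2 lower and 8 higher. Mcm6, a subunit of the replicative helicase, had a signal of 474 in adult testis and 3798 in neonatal testis, 8.02-fold lower. Mcm7, another subunit, had 3977 in adult testis and 7057 in neonatal testis, a log2 ratio of -0.83 under the limit. Ccna2, the cyclin of S phase and mitosis in somatic cells, had 181 in adult testis and 1895 in neonatal testis, 10.4-fold lower. Cdca3, which promotes entry into mitosis, was on the other side, with 4258 in adult testis and 1738 in neonatal testis.

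Among cyclins and inhibitors of G1, 3 of 15 were lower and none was higher, with a median of -0.65 that was 0.73 under the hybridization controls, with 2 lower and 3 higher. Ccnd2, or cyclin D2, had 216 in adult testis and 9109 in neonatal testis, 42.2-fold lower, with its probe sets between log2 ratios of -5.97 and 0.00. Cdk4, its kinase partner, had 273 in adult testis and 3133 in neonatal testis, 11.5-fold lower. Cdkn2d, an inhibitor of that kinase, had 1191 in adult testis and 409 in neonatal testis, a log2 ratio of 1.54.

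Ribosomal protein genes were lower in 4 of 42 and higher in none, with a median of -1.03 that was 0.34 under the hybridization controls, with 2 lower. Of 19 cholesterol synthesis genes 1 was higher and 1 was lower, with a median of -0.68 that was 0.69 under those controls. Fdft1, or squalene synthase, had a signal of 5921 in adult testis and 1286 in neonatal testis, 4.61-fold higher. Complement, interferon and MHC genes were lower in 6 of 20 and higher in none, with a median of -0.86 that was 0.16 under the hybridization controls, with 2 lower and 1 higher. Housekeeping genes were lower in 4 of 12 and higher in 1, with a median of -1.29 that was 0.08 under them, with none lower and 1 higher. Tbp, the TATA-binding protein, had 1802 in adult testis and 347 in neonatal testis, 5.20-fold higher. Hprt, an X-linked enzyme of purine salvage, had 439 in adult testis and 2163 in neonatal testis, 4.92-fold lower.

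The X chromosome stood apart from the 19 autosomes in its share of lower genes. Of its 619 genes 154 (24.9%) were lower and 50 (8.08%) were higher, with a median log2 ratio of -1.34. On single autosomes between 7.84% and 12.4% were lower and between 9.35% and 13.5% higher, with medians from -0.40 to -0.16. Under the hybridization controls 4.68% of X-linked genes were lower, against at most 3.47% on an autosome, 11.95% were higher, against at least 18.3%, and the X-linked median was -0.03. X-linked genes were not uniformly lower. Klhl13, an adaptor of a ubiquitin ligase, was at the floor in adult testis against a signal of 2466 in neonatal testis, at least 32.8-fold lower. Hs6st2, a heparan sulfate sulfotransferase, was likewise at the floor in adult testis against 2415 in neonatal testis, at least 32.1-fold lower. Akap4, the main protein of the fibrous sheath, is X-linked and had 8775 in adult testis against the floor in neonatal testis, at least 117-fold higher.

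**Figure D5:**
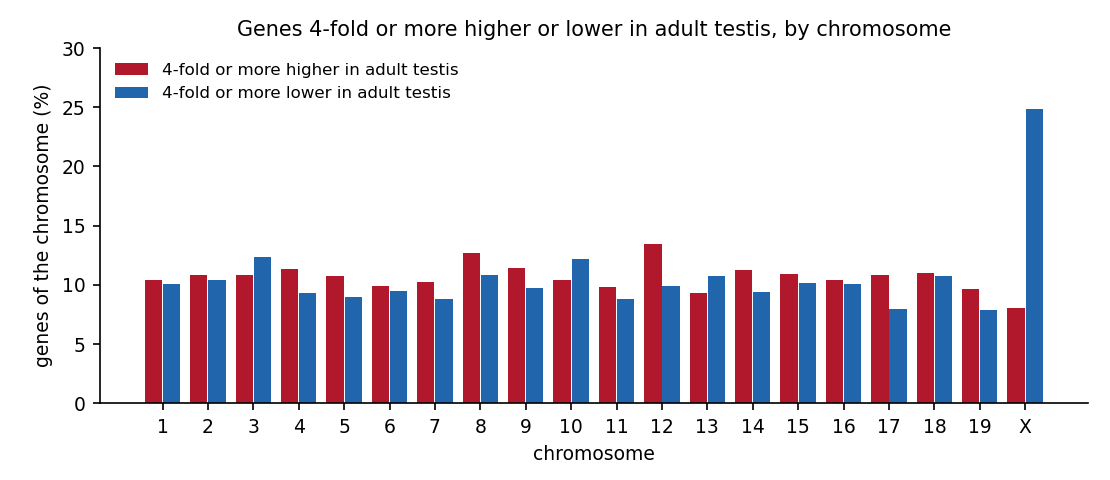
Share of the measured genes of each chromosome (%) that were 4-fold or more higher (red) or lower (blue) in adult testis than in neonatal testis. The X chromosome has 24.9% of its genes lower, against 7.84% to 12.4% on autosomes, and 8.08% higher; under the hybridization controls 4.68% were lower and 11.95% higher on it.

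The 2 gonads shared few of these differences. Of the 1937 genes higher in adult testis 735 (37.9%) were above the floor in adult ovary, against 1840 (98.1%) of the 1875 lower genes and 66.1% of all genes. Adult over neonatal ovary, a comparison with no array in common with that of the testes, had 270 genes (1.49%) higher and 343 (1.89%) lower. Of the genes higher in adult testis 10 (0.516%) were higher and 36 (1.86%) lower in adult ovary, and of those lower in adult testis 54 (2.88%) were higher and 83 (4.43%) lower. Fibrillar collagens had a median log2 ratio of -1.44 in ovary and -3.84 in testis, imprinted growth genes -1.53 and -3.54, and ribosomal protein genes -0.25 and -1.03. The fetal testis lay close to the neonatal one, with 64 genes higher and 80 lower in neonatal than in fetal testis. Serpinh1 had 5526 in fetal testis, 4716 in neonatal testis and 100.2 in adult testis. Ybx2 had 115, 92.5 and 6618 at the same ages.

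The arrays differed in the quality measures they carry. The ratio of 3' to 5' signal was 2.36 in adult testis and 1.43 in neonatal testis for Gapdh and 1.81 in adult testis and 2.91 in neonatal testis for Actb, so the 2 genes ordered the arrays differently, and the part of RNA integrity in the results was not tested. Where a gene had a pair of probe sets above the floor on both arrays, which was so for 3733 genes, the robust SD of 1 log2 ratio was 0.57. That spread is between probe sets of 1 gene on the same 2 arrays, and can include differences between the transcripts they read. Error shared by both probe sets and variation between animals are not part of it. Among 9020 genes with more than 1 probe set, 38 had probe sets that passed the limit in opposite directions. Further genes named above had probe sets whose ratios differed by more than 4-fold. Another probe set was at the floor on both arrays for Cdh5, Fdft1, Hs6st2, Hspa8, Igf1r, Mcm6, Nr2f2, Prkar2a, Ptch1, Spaca6, Tbp and Vdac1. Another had a smaller or opposite ratio for Brdt, Cetn1, Ddx3x, Dhh, Hoxa4, Hspa4l, Id2, Igf1, Igf2bp3, Itm2a, Kitl, Klhl13, Pdgfra, Pgk1, Rfx4, Sall4, Sfrp1, Sparc, Tbpl1 and Txn1, and a larger one for Dnal1. Of 9160 probe sets without a gene name here, 169 (1.84%) were higher and 141 (1.54%) were lower.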

How the data were processed

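The deposited table holds 1 intensity on a linear scale for each of 45101 probe sets and array. The submitters' processing notes name GCOS version 1 but not what it did, and the sources used here do not state the background correction, the probe summary or the scaling. Per the labels' protocols, biotinylated RNA was made from total RNA. The lowest deposited intensity is 1, and the trimmed means differ between arrays. Depth has no meaning for these arrays, and ratios of dim genes depend on an unknown background.

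Each array was multiplied by 1 factor (0.913 to 1.26) to the same 2% trimmed mean and floored at the pooled median of all scaled signals, 75.3. A ratio with 1 array at the floor is a lower bound. The platform annotation gave 34945 probe sets 1 gene symbol, 932 several and 9160 none, and 64 control probe sets served as checks only. Symbols were updated through the reference gene table, where 18159 of 18161 genes were found. The probe set with the highest mean signal represented a gene. Ratios of 4 or more were called, without a test. Python 3.11.15, numpy 2.4.6, pandas 2.3.3 and matplotlib 3.10.9 were used. The calls were also run on simulated arrays with known ratios. Their noise was smaller than the spread between probe sets, and their changed genes lay well above the floor. That run is therefore no check on genes near the floor. Columns of other samples in the table numbered 0.

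Lists were 60 sets of 1116 genes, of which 1012 were measured, plus proteasome subunits and ribosomal proteins by symbol pattern. The members and lists were chosen with earlier results of these data known. List medians cover members above the floor on either array. Named genes were, per direction, the 12 with the largest ratio where both arrays were above the floor, the 12 brightest where the other array was at it, and list members, and any other is said to be chosen later. Promoters came from RefSeq (GRCm38.p6), with the first listed start of a gene, and protein lengths, which had been planned, were not analysed here. Alternatives were quantile normalization, signals as deposited, the same median, hybridization controls, floors at the 25th and 75th percentile, 16 added without a floor, the mean of all probe sets, leaving out cross-hybridizing probe sets, fetal testis in place of neonatal testis, and limits of 2 and 8.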

Additional observations from a re-analysis of the deposited data

Results flagged for a closer look

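Several results ran in opposite directions in the 2 gonads, and none of these differences was tested, since each group has 1 array. Meiotic prophase genes had a median log2 ratio of 2.36 for adult over neonatal testis and of -1.16 for adult over neonatal ovary. Sycp3, of the chromosome axis, had signals of 4067 in adult testis and 481 in neonatal testis, and of 104 in adult ovary and 3051 in neonatal ovary. Leydig genes used at both ages, several of which the ovary also uses for steroids, had a median of -1.58 in testis and 3.43 in ovary. Cyp11a1, which makes pregnenolone from cholesterol, had 612 in adult testis and 3025 in neonatal testis, and 11368 in adult ovary against the floor in neonatal ovary.

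Across the genome, 36 genes were 4-fold or more higher in adult testis and lower in adult ovary, each over its neonatal array, and 54 were lower in adult testis and higher in adult ovary. The 36 were 1.86% of genes higher in adult testis, near the 1.89% of all genes that were lower in adult ovary. The 54 were 2.88% of genes lower in adult testis, against 1.49% of all genes that were higher in adult ovary. Among the 36 were Mael and Tdrd9, of the piRNA pathway. Mael had 7089 in adult testis and 1424 in neonatal testis, while adult ovary was at the floor against 1838 in neonatal ovary. Among the 54 were the inhibin and activin subunits Inha, Inhba and Inhbb and the steroid enzyme Hsd17b1. Hsd17b1 was at the floor in adult testis against 3037 in neonatal testis, and had 4124 in adult ovary against the floor in neonatal ovary.

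Probe sets that the annotation used here does not name also differed. Of 9160 such probe sets 169 (1.84%) were 4-fold or more higher in adult testis and 141 (1.54%) were lower. These shares count single probe sets. The 10.7% and 10.3% of named genes count each gene by its brightest probe set, so the 2 pairs of shares are not directly comparable.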

How the results depend on the processing

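The count of genes higher in adult testis, 1937, was 3806 under the hybridization controls, 1172 with a floor at the 75th percentile and 3211 at a ratio of 2, and the other 9 alternatives stayed within 1.5 times. The count of genes lower, 1875, was 460 under the hybridization controls, 741 with that floor, 1112 with the mean of all probe sets, 4619 at a ratio of 2 and 592 at a ratio of 8, and the other 7 stayed within 1.5 times. With fetal testis in place of neonatal testis 1876 genes were higher and 2011 lower. A change of limit changes the count by construction, and the cause of the other moves was not tested. Igfbp5 reversed, with a log2 ratio of 0.98 without probe sets that can cross-hybridize against -5.76. Of 62 lists the median of 17 changed sign under the hybridization controls and that of 1, red cells, under the other 3 scalings. Over all alternatives 479 list medians and 333 ratios of named genes moved by less than the spread between probe sets, and 141 and 145 moved by more. No paired analysis was possible because each group has 1 array, so the groups share fewer than 2 replicate numbers. Variation between animals is unknown here, a difference between single arrays includes it, and genes near the floor of 75.3 have compressed ratios.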

Other observations

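Transcripts without a protein product and genes with provisional names were more often higher than lower. Of 1461 long noncoding RNA genes 202 (13.8%) were higher in adult testis and 21 (1.44%) lower, with a median log2 ratio of 0.91, against 10.4% and 11.2% of 16484 protein-coding genes. Genes still named by a RIKEN clone were higher in 290 (22.9%) of 1265 and lower in 20 (1.58%). Genes with Gm numbers were higher in 45 of 452 (9.96%), near the 10.7% of all genes, and lower in none. Only 186 of the 452 were above the floor on either array, so few could be lower. The same limit holds for the long noncoding RNA genes, with 712 of 1461 above the floor, and for the RIKEN genes, with 757 of 1265. Of the protein-coding genes 13371 of 16484 were above it. Under the hybridization controls 23.1% of long noncoding genes were higher and 0.479% lower, against 20.8% and 2.75% of protein-coding genes.

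Gene families that share a name stem were counted after their values were seen. Higher in adult testis were 20 of 25 Cfap genes (cilia and flagella associated), 18 of 22 Spata, 22 of 35 Tex, 8 of 12 Ttll (tubulin-modifying ligases) and 7 of 10 Dnah (dynein heavy chains), with no member lower. The Adam proteases lay on both sides, with 12 of 28 higher and 3 lower, and so did the Prss serine proteases, with 13 of 31 higher and 2 lower. Collagens by stem were higher in 3 and lower in 19 of 42, the Tcf transcription factors lower in 8 of 12 and the Mcm genes lower in 5 of 10, with no member of these last 2 families higher. None of these family medians changed sign under the hybridization controls, but under them 28.6% of the collagens, 3 of 12 Tcf genes and no Mcm gene were lower.

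Some genes gave opposite calls by probe set, which a reader of the gene level values would not see. Dpysl3, chosen after its values were seen, had 1 probe set at 186 in adult testis and 1880 in neonatal testis, 10.1-fold lower, and another with 5881 in adult testis and 98.0 in neonatal testis, a log2 ratio of 5.91. Whether the probe sets read different transcripts of such genes was not tested.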
